A study of Mus musculus with 104 samples.

Results

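Ide encodes insulin-degrading enzyme, a zinc peptidase of the M16 family. It was followed here as a single gene, chosen by name because its level had been seen to fall in separate ranges, and it is 1 of 19563 genes in the deposited Ensembl count table. The libraries came from the cerebral cortex of wild type C57BL/6 mice, all 6 months old and untreated as far as the labels say. They fall into 13 lines of 8 mice each, 4 females and 4 males, and every line carries the name of a gene: Zswim6, Tbc1d8, Rgs9, Rasgef1a, Ppp1ca, Pcdh20, Morf4l1, Kdm3b, Hrk, Gsg1l, Ece2, Dach1 and Arpp19. All mice are labelled wild type, so the line name is taken here as a group and not as an allele. The labels give 2 plates, with 8 libraries on plate 2 and 96 on plate 1. The series gives no purpose for comparing the lines, and the substrain of C57BL/6 is not given in the labels.

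Insulin-degrading enzyme cuts small peptides that can fold into its closed chamber. Insulin, glucagon, amylin and amyloid beta are among them, which is why the enzyme is studied both in glucose metabolism and in the brain. The M16 family carries an inverted zinc site, in the order histidine, any, any, glutamate, histidine, in which the histidine pair binds the metal ion and the glutamate between them is the catalytic base. In the mouse, Ide lies on chromosome 19 on the minus strand, at chr19:37268743-37337852 in GRCm38, and its identifier in the files is ENSMUSG00000056999. As background, copy number variation that includes Ide and Fgfbp3 has been described within the C57BL/6J strain. DNA was not measured in these samples, and copy number was not tested.

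The zinc site is shown because it is what the peptidases of the family share and what their relatives without peptidase activity have lost. It was sought in frame in the coding sequence of the longest annotated transcript of each member, as the letters CANNNNNNNGANCAN on the coding strand with the third base of each codon limited to those that keep the amino acid. The site was found once each in Ide, Nrdc (listed as Nrd1 in the files), Pitrm1 and Pmpcb. It was found in none of Pmpca, Uqcrc1 and Uqcrc2. The stretch printed for Ide lies in exon 2 of its longest coding transcript, at chr19:37329118-37329168 on the minus strand, and that for Pitrm1 in exon 4 at chr13:6553207-6553257 on the plus strand. The stretch for Nrdc runs over the junction of exons 5 and 6 at chr4:109017887-109018974, and that for Pmpcb over the junction of exons 3 and 4 at chr5:21740082-21740490, both on the plus strand. Sequences are from the GENCODE vM21 transcripts of GRCm38, written 5′ to 3′, with the 5 codons of the zinc site in capitals.
Ide: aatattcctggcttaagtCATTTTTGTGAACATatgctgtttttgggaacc
Nrdc: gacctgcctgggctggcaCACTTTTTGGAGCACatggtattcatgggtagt
Pitrm1: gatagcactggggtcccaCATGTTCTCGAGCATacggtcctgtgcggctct
Pmpcb: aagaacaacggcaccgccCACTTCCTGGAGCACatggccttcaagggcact

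The libraries held between 25032903 and 34702382 counted reads each, apart from the library Kdm3b female 22 with 3525768 reads. Female and male libraries are named by line, sex and replicate number throughout. The reads of Xist and of Y-linked genes went against the sex label in 3 libraries, which are Rasgef1a female 39, Rasgef1a male 40 and Rgs9 female 43. Markers of cortical excitatory neurons, a list of 6 genes, summed to between 312 and 380 FPKM in every library, where FPKM is a level scaled by gene length and library size. Choroid plexus markers, a list of 3 genes, had a median sum of 0.874 FPKM and reached 213 FPKM in the library Rasgef1a male 37. No 2 libraries were alike within sampling noise.

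The levels of Ide in the cortex of these mice were divided into 3 ranges, cut at wide gaps with at least 3 libraries each. That minimum was set after the values were seen, and another rule gave 2 ranges. The low range held 3 libraries, the middle range 46 and the high range 55. Levels are given in CPM, read counts scaled to a common library size with TMM normalisation factors. The 3 low libraries had 56.0 CPM in Morf4l1 male 25, 57.5 CPM in Tbc1d8 female 45 and 66.8 CPM in Tbc1d8 male 46. The middle range ran from 80.5 to 93.9 CPM with a median of 87.2 CPM. The high range ran from 108 to 127 CPM with a median of 118 CPM. No library had a level between the ranges, and inside the middle and high ranges the spread was narrow, with a coefficient of variation of 3.31% in the middle range and 3.34% in the high range.

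Between medians, the steps were of nearly equal height on the linear scale. From the median of the low range to that of the middle range the step was 29.7 CPM, and from the middle to the high range it was 30.8 CPM. The low median is the value of Tbc1d8 female 45, in a range of 3 libraries that ran from 56.0 to 66.8 CPM. As means, the low, middle and high ranges stood at 60.1, 87.3 and 118 CPM, with ratios of 1.45 and 1.35. With 3 unlike low libraries, the height of the lower step is uncertain. As ratios of medians, the middle range was 1.52 times the low range, and the high range was 1.35 times the middle range and 2.05 times the low range. These ratios and ranges describe the values that defined the ranges, so no test applies to them.

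The edges of the ranges lay apart by more than the counting error of single libraries. The highest library of the low range, Tbc1d8 male 46, rested on 2297 Ide reads and had an exact Poisson 95% interval of 64.1 to 69.5 CPM. The lowest library of the middle range, Pcdh20 male 30, had an interval of 77.4 to 83.7 CPM. Across the other boundary, the highest middle library, Ece2 female 10, had an interval of 90.6 to 97.3 CPM, and the lowest high library, Hrk male 17, one of 103.99 to 112 CPM. Inside the low range, Tbc1d8 female 45 had an interval of 54.7 to 60.4 CPM, which also lay apart from that of Tbc1d8 male 46. These intervals cover counting error only. The boundaries were set at wide gaps in these same values, so the distances across them are a description.

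On the log2 scale the widest gap between neighbouring libraries was 0.27, between the low and the middle range, and the gap between the middle and the high range was 0.20. A gap of 0.22 also lay inside the low range, below Tbc1d8 male 46, whose level was apart from both of the other low libraries. The next widest gap anywhere was 0.05, between the lowest and the next library of the high range. The shallow library Kdm3b female 22 had 126 CPM from 441 Ide reads, with a counting interval of 114 to 138 CPM that lies wholly above the middle range.

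**Figure D1:**
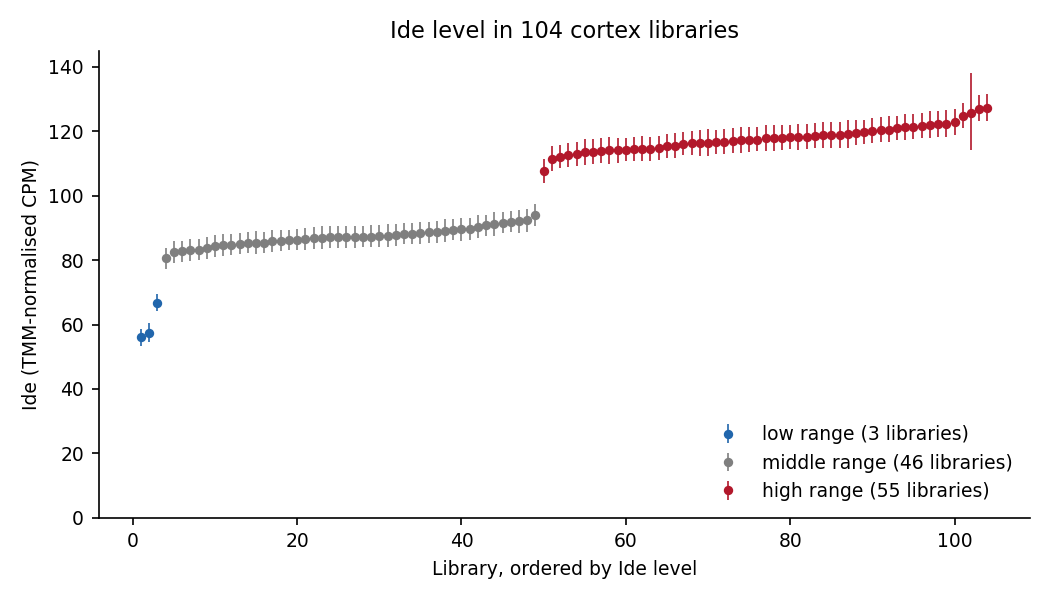
Ide level in CPM (vertical axis, linear) for all libraries in order of level (horizontal axis). Bars are exact Poisson 95% intervals of the read count and colours mark the low, middle and high range; the middle and high ranges, with medians of 87.2 and 118 CPM, form nearly flat stretches, and the 3 low libraries lie below them, with 1 of the 3 at 66.8 CPM, apart from the other two.

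The same libraries fell in the same ranges in each of the authors' 4 tables. These tables rest on the same reads, and Ide was chosen from them, so the agreement is a description and no independent support. All libraries kept their range when the boundaries were drawn anew in the RefSeq counts, the Ensembl FPKM and the RefSeq FPKM. In Ensembl FPKM, the medians were 9.32 in the low range, 14.1 in the middle range and 18.96 in the high range. In RefSeq FPKM they were 12.05, 18.1 and 24.4, so the 2 FPKM scales differ in level. The middle range was 1.51 times the low range and the high range 1.35 times the middle range in Ensembl FPKM, and 1.503 times and 1.35 times in RefSeq FPKM.

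The spread of Ide among mice of a line was wide for a gene of its level. Its within-line SD was 0.22 on the log2 scale. The median was 0.07 over the 5972 genes with a mean of at least 5 log2 CPM, where Ide ranked 76th from the most variable. Over all 14283 genes tested, including those with few reads, the median was 0.11 and Ide ranked 3170th. Ide was chosen for its stepped levels, so this spread restates the choice and is a description.

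The lines differed in how their mice were divided among the ranges. In 11 of the 13 lines both the middle and the high range were present, and 1 line, Morf4l1, had all 3. The levels below are the lowest, the median and the highest of the 8 mice of a line. Tbc1d8 had no library in the high range and 2 in the low range, with 57.5, 88.1 and 92.0 CPM. Gsg1l had 7 middle libraries and 1 high library, with 82.7, 88.5 and 119 CPM. Morf4l1 had 1 low, 4 middle and 3 high libraries, with 56.0, 87.0 and 123 CPM. These 3 lines had the lowest means of the series, at 82.4, 91.8 and 93.8 CPM.

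Another 6 lines were divided about evenly. Pcdh20, with 5 middle and 3 high libraries, had 80.5, 88.7 and 122 CPM. Ece2, also with 5 middle and 3 high libraries, had 85.4, 93.1 and 125 CPM. Ppp1ca, Rgs9, Kdm3b and Dach1 each had 4 libraries in either range, so that their medians, at 99.4, 104.2, 101 and 103 CPM, fell in the empty interval where no mouse lay. Their lowest and highest mice had 84.7 and 117 CPM in Ppp1ca, 84.8 and 119 CPM in Rgs9, 82.4 and 126 CPM in Kdm3b, and 85.8 and 127 CPM in Dach1.

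The other 4 lines were mostly or wholly in the high range. Hrk had 7 high libraries and 1 middle library, with 83.3, 116 and 127 CPM. Arpp19 had 85.5, 117 and 121 CPM, and Rasgef1a had 84.4, 117 and 122 CPM, again with a single middle library each. Zswim6 was the line with all 8 libraries in 1 range, with 112, 119 and 122 CPM. Its SD of 3.65 CPM compares with 11.1 to 21.9 CPM in the 11 lines that held both the middle and the high range.

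The order of the line means ran from Tbc1d8 through Gsg1l, Morf4l1, Pcdh20, Ppp1ca, Ece2, Rgs9, Kdm3b, Dach1, Hrk, Arpp19 and Rasgef1a to Zswim6, at 118 CPM. For each of the 12 pairs of neighbours in that order the difference was smaller than the larger of their SDs, with a widest step of 9.37 CPM. The median of a line within a range can only lie between the edges of that range. The ranges were cut from these values, so the span of such medians is bounded in advance. The median within the middle range lay between 83.3 and 90.8 CPM over the 12 lines that had it, and the median within the high range between 115 and 121 CPM over the 12 lines that had it.

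**Figure D2:**
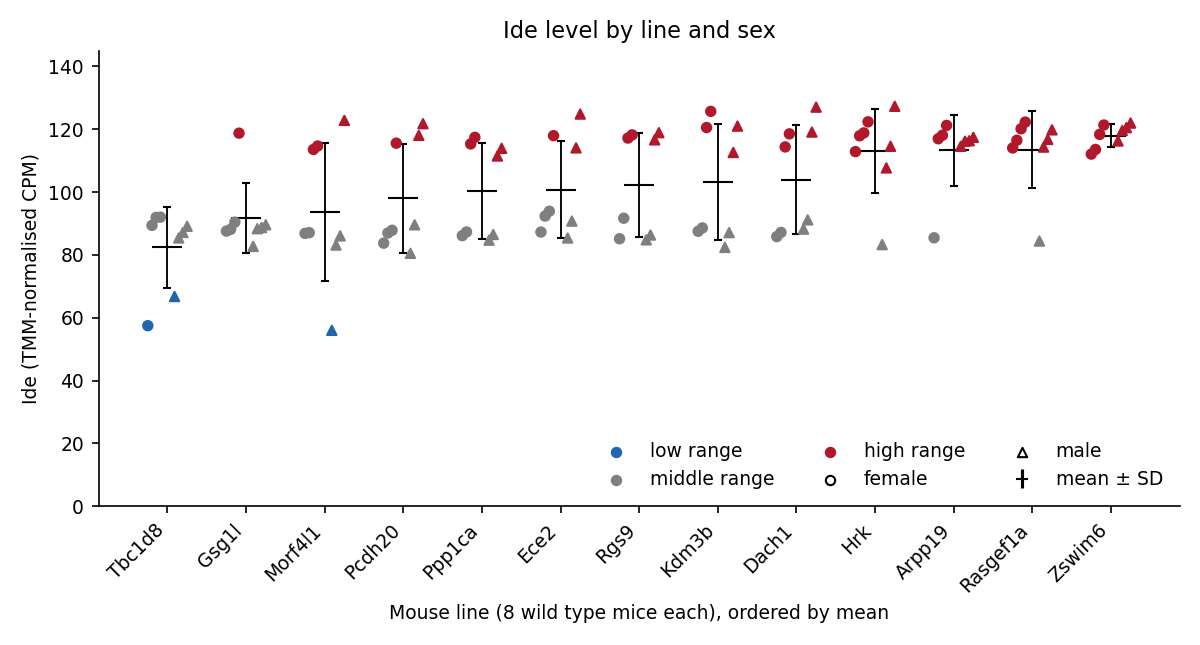
Ide level in CPM (vertical axis) for each mouse, by line in order of mean (horizontal axis), with females as circles left of males as triangles, colours for the range, and the line mean ± SD (n = 8). Points gather at 2 or 3 heights in 12 of the 13 lines, from no high mouse in Tbc1d8, and at 1 height in Zswim6, where 8 of 8 mice are high.

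No sex difference in Ide beyond its spread was detected. Females averaged 103.5 ± 16.3 CPM and males 102 ± 18.1 CPM (SD, n = 52 each). The difference, females minus males within line, was 0.02 ± 0.04 on the log2 scale (SE; edgeR quasi-likelihood test, Benjamini-Hochberg adjusted p = 0.797 over all genes), with a 95% interval of -0.06 to 0.11. Over all genes tested, 9.27% differed by sex at an adjusted p under 0.05. The low, middle and high ranges held 1, 23 and 28 females and 2, 23 and 27 males. Females had the higher mean in 8 of the 13 lines. Without the 3 libraries that go against their sex label, all of them in the high range, the difference was 0.02 (adjusted p = 0.862).

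No difference by plate was detected either. The 8 libraries of plate 2 averaged 98.4 ± 14.9 CPM and the 96 of plate 1 103 ± 17.3 CPM (SD). Within line and sex, the difference of plate 2 minus plate 1 was 0.03 ± 0.08 on the log2 scale (SE; edgeR, adjusted p = 0.907), where 0.371% of all genes tested differed by plate. Its 95% interval ran from -0.13 to 0.20. The raw means and the fitted difference have opposite signs, and the fitted sign itself turned without the line Morf4l1 (-0.0135). Plate 2 held 5 middle and 3 high libraries.

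Read depth and tissue make-up stood beside the ranges as follows. The median library size was 33653261 reads in the low range, 29418385 reads in the middle range and 29543896 reads in the high range. Over the 10 marker lists of brain, blood and covering tissues, the ratio of median sums between the high and the middle range ran from 0.935 to 1.06. The ratio between the middle and the low range ran from 0.799 to 1.12. In bulk tissue, fewer cells of a type and less RNA per cell cannot be told apart.

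Among the other genes, 2 neighbours on chromosome 19 followed Ide across the mice, Btaf1 and Fgfbp3. Both lie on the side of the Ide gene with lower coordinates, and genes that lie between them and Ide did not step with its ranges. Likeness was measured as Pearson's r of log2 CPM over all libraries, as a description and with no test, since the libraries share lines and depth. Btaf1 had r = 0.82, or 0.77 after the line means were taken out, and Fgfbp3 had r = 0.68, or 0.64. They ranked first and next of 14282 genes on both measures, and no other gene passed 0.5 on either.

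Btaf1, at chr19:36926079-37012752 on the plus strand, encodes an ATPase that takes the TATA-binding protein off DNA. In the 3 low libraries it had 52.1 CPM in Morf4l1 male 25, 61.0 CPM in Tbc1d8 female 45 and 64.1 CPM in Tbc1d8 male 46. It ran from 61.7 to 93.8 CPM with a median of 74.1 CPM in the middle range, and from 78.2 to 119.5 CPM with a median of 93.7 CPM in the high range. The ranges overlapped in Btaf1, unlike in Ide: 27 of 55 high libraries lay above every middle library, and 31 of 46 middle libraries lay below every high library. As ratios of medians, the middle range was 1.21 times the low range and the high range 1.26 times the middle range.

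Within lines the means of Btaf1 followed the Ide range each time, though single mice overlapped. In all 11 lines with both ranges the mean of Btaf1 was higher in the high mice, by between 1.10 times in Gsg1l and 1.41 times in Morf4l1. In Arpp19, Gsg1l, Hrk and Rasgef1a, 1 of the 2 ranges was a single mouse. The single high mouse of Gsg1l had 78.2 CPM, below the middle mouse Gsg1l male 14 at 81.7 CPM. In Morf4l1, the 1 low mouse had 52.1 CPM, the 4 middle mice averaged 66.998 CPM and the 3 high mice averaged 94.7 CPM. Inside the ranges the relation was weak or gone, with r = 0.35 over the 46 middle libraries and r = -0.01 over the 55 high libraries.

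Fgfbp3, at chr19:36917550-36919615 on the minus strand, encodes a secreted protein that binds fibroblast growth factors. Its start lies 6.46 kb from that of Btaf1, and the pair are transcribed away from each other. It was a low gene, with a median of 165 reads a library, so its values carry more counting error. It had 3.43 CPM in Morf4l1 male 25, 3.97 CPM in Tbc1d8 female 45 and 3.20 CPM in Tbc1d8 male 46. Its medians were 5.02 CPM in the middle range and 6.10 CPM in the high range, with values from 3.43 to 6.18 CPM and from 4.56 to 7.68 CPM. The 4.56 CPM was that of the shallow library Kdm3b female 22, and the next lowest high library, Rasgef1a female 40, had 5.04 CPM. The ranges overlapped widely, and 25 of 55 high libraries lay above every middle library.

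For Fgfbp3 the middle range was 1.46 times the low range and the high range 1.21 times the middle range, as ratios of medians. Its mean was higher in the high than in the middle mice in 10 of 11 lines. The exception was Arpp19, where the 7 high mice averaged 5.87 CPM and the single middle mouse had 6.18 CPM. Inside the ranges Fgfbp3 ran against Ide, with r = -0.36 in the middle range and r = -0.41 in the high range.

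Cpeb3 and March5 lie between Btaf1 and Ide and stayed level over the ranges. Cpeb3, at chr19:37021291-37208601, encodes an RNA-binding regulator of translation at synapses. Its medians were 98.9, 98.7 and 100.3 CPM in the low, middle and high range. March5, at chr19:37207543-37222151, encodes a ubiquitin ligase of the outer mitochondrial membrane. Its medians were 54.4, 54.3 and 54.8 CPM. In 5 of 11 lines each gene had the higher mean in the high mice, and in the rest the higher mean in the middle mice. Their r with Ide over all libraries was 0.09 for Cpeb3 and 0.14 for March5. Inside the middle and the high range, r was 0.36 and 0.37 for Cpeb3, and -0.15 and 0.07 for March5. Cpeb3 thus varied with Ide inside both ranges, though its medians did not step between them.

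**Figure D3:**
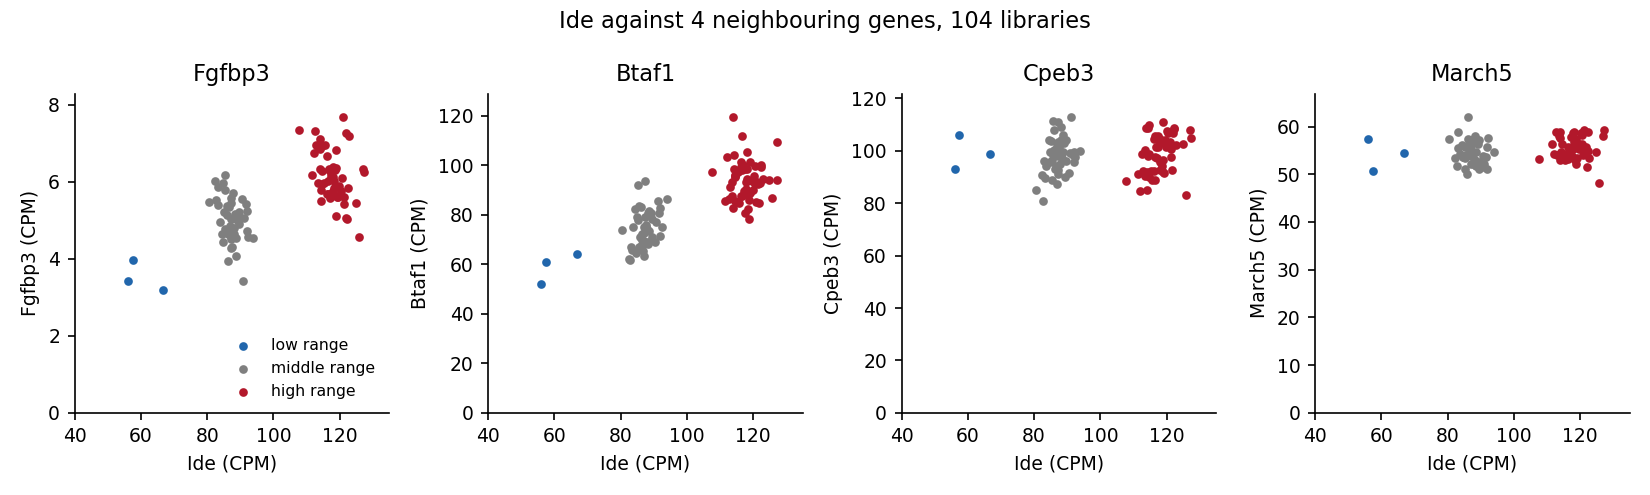
Level of Fgfbp3, Btaf1, Cpeb3 and March5 in CPM (vertical axes) against Ide in CPM (horizontal axes), each point 1 library, coloured by Ide range. The clouds step upwards for Fgfbp3 and Btaf1 (r = 0.68 and 0.82) and stay at 1 height for Cpeb3 and March5 (r = 0.09 and 0.14).

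The window of 1 Mb on either side of Ide held 17 other genes with enough reads to test. Apart from Btaf1 and Fgfbp3, the remaining 15 had r with Ide between -0.14 and 0.18. Their ratios of medians between the high and the middle range lay between 0.929 and 1.04, and those between the middle and the low range between 0.823 and 1.17. The ends of that interval were Pde6c and Cep55, with medians of 7 and 6 reads a library. Tnks2, which encodes tankyrase 2 and is the next gene beyond Fgfbp3 at chr19:36834232-36893477, had medians of 175, 178 and 176 CPM in the low, middle and high range. On the other side of Ide, Exoc6, a subunit of the exocyst at chr19:37550418-37684059, had 28.2, 27.1 and 27.3 CPM. Between Ide and Exoc6 lie Kif11, a motor of the mitotic spindle, and Hhex, a homeobox factor. They had medians of 39.0 and 35.0 reads a library, too few to show a step of this size in single mice. Over the low, middle and high range, the medians were 1.22, 1.36 and 1.26 CPM for Kif11. For Hhex they were 1.05, 1.15 and 1.14 CPM.

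A test across all genes asked which of these 17 neighbours differed between the 13 lines. It called 3 of them, Btaf1, Pcgf5 and Lgi1, or 17.6%, against 9.83% of all 14283 genes tested (edgeR quasi-likelihood F-test, adjusted p under 0.05). Btaf1 had an adjusted p of 1.38e-04 by edgeR, with the highest line mean of 95.4 CPM in Arpp19 and the lowest of 70.2 CPM in Tbc1d8. Fgfbp3 missed the threshold by edgeR (adjusted p = 0.0616) and passed it by DESeq2 (adjusted p = 0.0250), which called 13.1% of the genes it tested, with 6.48 CPM in Hrk and 4.80 CPM in Tbc1d8 at the ends.

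Pcgf5, a Polycomb subunit, averaged 10.8 CPM in Ppp1ca and 9.21 CPM in Tbc1d8 (edgeR, adjusted p = 0.00767). Lgi1, which encodes a secreted synaptic protein, averaged 121 CPM in Kdm3b and 113 CPM in Rgs9 (edgeR, adjusted p = 0.0292). On plate 1 only, where 6.58% of all genes were called, Lgi1 missed the threshold (adjusted p = 0.128). Without Tbc1d8 and Gsg1l the edgeR test called 0 of the 17, with 5 at an unadjusted p under 0.05, and Btaf1 then had an adjusted p of 0.469. Of all genes, 0.0843% were called in that smaller set of lines. By sex, 1 of the 17 was called against 9.27% of all genes. It was Myof, a membrane repair protein, higher in females by 0.17 ± 0.05 on the log2 scale (SE; edgeR, adjusted p = 0.0237).

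**Figure D4:**
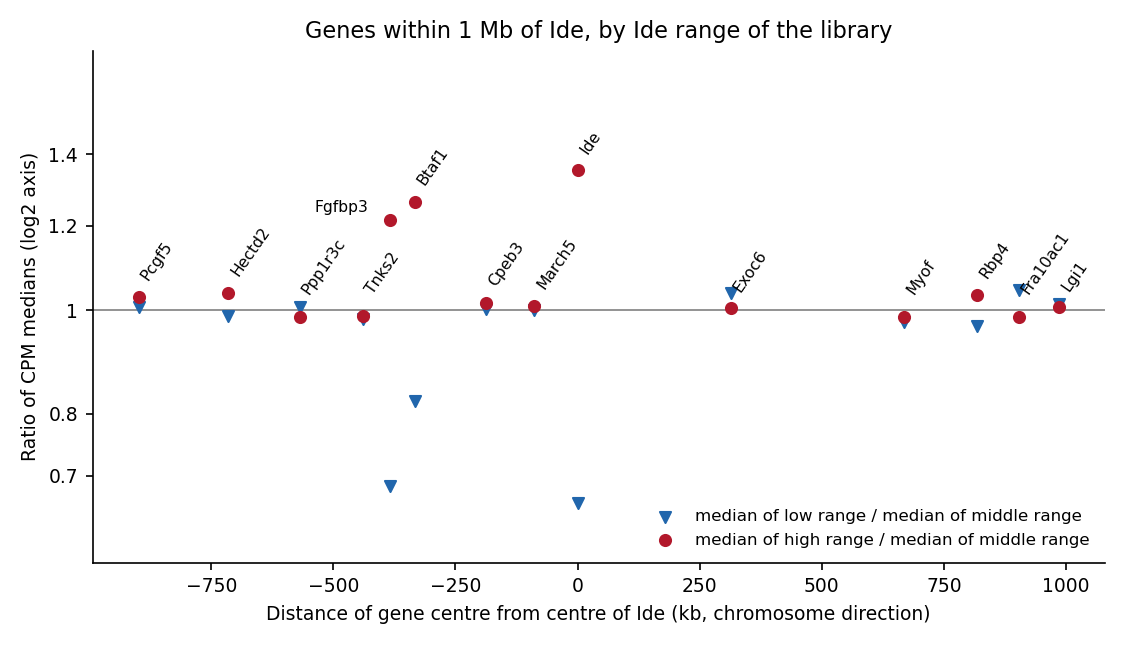
Ratio of CPM medians to the middle range (vertical axis, log2 scale) for the low range (triangles) and the high range (circles), by distance of the gene's centre from that of Ide in kb (horizontal axis), for the 14 genes with a median of at least 100 reads. Ide, Btaf1 and Fgfbp3 step in both directions, and Cpeb3 and March5 between them lie at 1.

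A pseudogene of a ribosomal protein gene, Rpl10-ps6, lies inside Ide on the same strand, at chr19:37295155-37295796. Its Ensembl FPKM had medians of 0.506, 0.671 and 1.03 in the low, middle and high range. Reads of Ide and of this pseudogene may not have been fully told apart by the counting.

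Over all 10822 genes with a mean of at least 5 CPM, the median ratio between the high and the middle range was 1.00, and 1% of genes exceeded 1.06. Ide ranked first by this ratio, which its own ranges fix, Btaf1 next and Fgfbp3 at rank 4. The gene at rank 3 was Cdkn1a, a cell cycle inhibitor on chromosome 17, named here after its values were seen. It had medians of 15.3, 17.95 and 22.6 CPM but an r with Ide of 0.18.

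The genes that came next in likeness lay on other chromosomes and far behind. By r over all libraries they were Meaf6 at 0.43, which encodes a subunit of histone acetyltransferase complexes, the zinc finger gene Zscan26 at 0.42, and the splicing factor gene Zrsr2 at 0.41. With line means taken out these fell to 0.29, 0.23 and 0.20. After line means, the next were Pnpt1, a mitochondrial RNA exonuclease, at 0.42, Tmem41b, an endoplasmic reticulum protein, at 0.33, and Gm9989 at 0.33. Pnpt1 kept an r of 0.38 inside the middle range and 0.29 inside the high range. The lowest r overall belonged to Jpt1 at -0.41, Tbc1d9b at -0.40 and Pih1d1 at -0.40.

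The other members of the M16 family did not step with the ranges of Ide. Their own ordered levels were not searched for gaps. Nrdc encodes nardilysin, the closest relative of Ide in this list, and Pitrm1 the peptidase that clears targeting peptides in mitochondria. Pmpcb and Pmpca are the catalytic and the regulatory subunit of the mitochondrial processing peptidase. Uqcrc1 and Uqcrc2 are core subunits of respiratory complex III. Per gene length, Ide averaged 16.6 ± 2.75 FPKM over all libraries (SD), between Pitrm1 at 11.4 ± 0.547 FPKM and Nrdc at 22.7 ± 1.01 FPKM. Pmpcb was the lowest at 7.04 ± 0.325 FPKM and Uqcrc2 the highest at 59.8 ± 2.29 FPKM. The SD of Ide was wider than those of relatives with higher levels. Ide was chosen for its stepped levels, so this width restates the choice.

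For the 6 relatives the ratio of medians between the high and the middle range lay between 0.983 and 1.01, and r with Ide between -0.20 and 0.18. Nrdc had medians of 170 CPM in the low range, 173 CPM in the middle range and 173 CPM in the high range. Between lines, edgeR called 0 of the 6, against 9.83% of all genes, and 3 had an unadjusted p under 0.05. DESeq2 called 1 of the 6, Pmpcb (adjusted p = 0.0479), against 13.1% of the genes it tested. By sex, edgeR and DESeq2 called 0 of the 6, with 1 at an unadjusted p under 0.05 by edgeR. Of all genes tested, edgeR called 9.27% and DESeq2 10.1%.

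**Figure D5:**
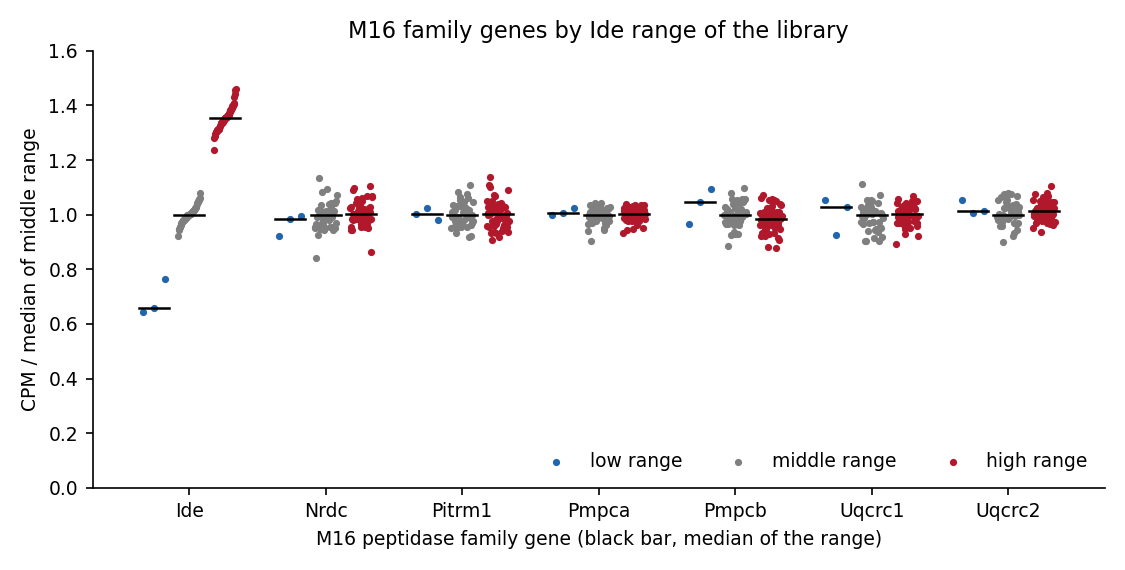
Level of the 7 M16 family genes, each divided by its own CPM median in the middle range (vertical axis), by the Ide range of the library (low, middle and high from left to right; points are libraries and black bars medians). Ide differs between the 3 ranges that its own values set. Its 6 relatives stay near 1, with high over middle ratios from 0.983 to 1.01.

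Genes tied to the enzyme's work were read from 3 further lists: other peptidases that cut amyloid beta, substrates or their precursors, and insulin and IGF signalling. With the M16 relatives these lists held 56 genes, of which 48 had enough reads to test. The line test called 5 of the 48, against 9.83% of all genes, and the sex test 5, against 9.27%. The median F of the 48 in the line test was 1.65, beside 1.28 over all genes, and their median sex difference was 0.00 on the log2 scale, as over all genes.

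The peptidases Mme and Ctsb differed between lines. Mme encodes neprilysin, a membrane peptidase that also degrades amyloid beta, and averaged 12.5 ± 0.878 CPM in Tbc1d8, its highest line, and 10.01 ± 0.942 CPM in Pcdh20, its lowest (SD, n = 8; edgeR, adjusted p = 4.78e-04). Ctsb, the lysosomal cathepsin B, averaged 662 ± 24.2 CPM in Morf4l1 and 605 ± 23.9 CPM in Tbc1d8 (SD, n = 8; edgeR, adjusted p = 0.0199; 0.129 on plate 1 only). App, which encodes the amyloid precursor protein, averaged 2064 ± 67.1 CPM in Morf4l1 and 1874 ± 74.99 CPM in Tbc1d8 (SD, n = 8; edgeR, adjusted p = 0.00187).

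In the insulin and IGF list, the kinase genes Gsk3b and Akt1 were called between lines, with edgeR adjusted p of 0.00691 and 0.0305. Gsk3b had its highest mean of 283 CPM in Kdm3b and its lowest of 258 CPM in Gsg1l, and Akt1 its highest of 175 CPM in Tbc1d8 and its lowest of 165 CPM in Kdm3b. The call of Akt1 was lost without the 3 libraries that go against their sex label (adjusted p = 0.0789), on plate 1 only (0.232) and with no filter on low counts (0.0596). Without Tbc1d8 and Gsg1l, edgeR called 0 of the 48, with 6 at an unadjusted p under 0.05, beside 0.0843% of all genes.

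These genes followed Ide weakly at most. Over the 48, r with Ide lay between -0.25, for Mme, and 0.18, for Nrdc. The receptor gene Insr had an r of 0.08, Igf1r -0.02, App 0.06 and Gsk3b 0.15.

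By sex, 3 of the 48 were higher in females, where 4.82% of all genes were, and 2 were lower, where 4.45% were. Igfbp2, a carrier of insulin-like growth factors, averaged 25.6 ± 3.66 CPM in females and 23.1 ± 3.21 CPM in males (SD, n = 52 each; edgeR, adjusted p = 0.00722), with females higher in 11 of 13 lines. Tgfa, an EGF receptor ligand that the enzyme can cut, averaged 19.05 ± 1.65 CPM in females and 20.5 ± 1.62 CPM in males (SD, n = 52 each; edgeR, adjusted p = 0.00150), with females higher in 1 of 13 lines. Akt1 averaged 167 ± 6.02 CPM in females and 170.3 ± 6.21 CPM in males (SD, n = 52 each; edgeR, adjusted p = 0.0359).

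The other calls were the cathepsin gene Ctsd and the peptidase gene Nln, higher in females by 0.04 and 0.06 on the log2 scale (edgeR, adjusted p = 0.0233 and 0.0444). Both missed the threshold without the 3 libraries that go against their sex label (adjusted p = 0.0505 and 0.0510), where Igfbp4 passed it (adjusted p = 0.0437) and 9.03% of all genes were called. Nln also missed it in the RefSeq counts (adjusted p = 0.0555) and with no filter on low counts (0.0619). The 8 genes with too few reads to test included the peptide substrates named first for the enzyme. Ins1 was listed at 0 in all libraries, and Ins2, Iapp and Gcg averaged 4.67e-04, 6.70e-04 and 0.00658 FPKM.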

How the data were processed

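RNA from the cortex samples was sequenced from stranded TruSeq libraries, per the labels' protocols. Reads were aligned to GRCm38 (mm10) with STAR 2.7.3a and counted with HTSeq 0.10.0, per the submitters' processing notes. The authors deposited raw read counts and FPKM values, each on Ensembl and RefSeq genes; how the FPKM were made is not given in the sources used here. Of 19563 Ensembl IDs, 19514 matched a GENCODE vM21 symbol, and 1 incomplete last line was left out.

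Counts were filtered with filterByExpr by line and sex, which left 14283 genes, scaled by TMM and tested with edgeR 4.0.16 (quasi-likelihood, line plus sex, with plate added for its own test; Benjamini-Hochberg over all genes, threshold 0.05). Log2 CPM used a prior count of 2. DESeq2 1.42.0, limma 3.58.1 on log2(FPKM + pseudocount) and mclust 6.1.1 served the alternatives. The edgeR script was tested on simulated data.

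Ranges of Ide were cut at the 2 widest gaps that leave at least 3 libraries in every range. The rule first written asked for at least 4, which the 3 lowest libraries cannot meet; the change was made after the values were seen. The gene, its lists and its neighbours were chosen with earlier results of these data known. Named genes were Ide, tested neighbours within 1 Mb, the 5 highest and 3 lowest by r, the 5 highest after line means, and list members called or placed first in their lists. Replicates are mice of a line, per the series' design text.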

Additional observations from a re-analysis of the deposited data

Results flagged for a closer look

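In each line of 8 mice, the highest and the lowest value of Ide, Btaf1 and Fgfbp3 were set against the others. In 39 such groups, 5 values stood apart by more than Dixon's 95% critical ratio for 8 samples. Chance flags about 1 in 20 groups of a gene whose values are not stepped. Ide was chosen for its stepped levels, so its 4 values restate how the lines fall over the ranges and are a description.

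For Ide, the single middle-range mouse of 3 lines stood apart below its line. Arpp19 female 4 had 85.5 CPM with the next mouse at 115 CPM, Rasgef1a male 37 had 84.4 CPM with the next at 114 CPM, and Hrk male 19 had 83.3 CPM with the next at 108 CPM. Rasgef1a male 37 is also the library with choroid plexus markers at 213 FPKM; their part in its Ide level was not tested. The single high-range mouse of Gsg1l, female 14, stood apart above its line, with 119 CPM and the next mouse at 90.4 CPM. The same mouse had 23.7 CPM of Nnt, a mitochondrial transhydrogenase gene, against 30.6 to 35.1 CPM in the other 7 Gsg1l mice and 18.8 to 27.2 CPM in the 88 mice of the other 11 lines. Its level of Gabra2, a GABA-A receptor subunit gene, was 43.7 CPM. The other 7 Gsg1l mice had 81.3 to 96.2 CPM of Gabra2, and the other 11 lines 41.2 to 88.8 CPM. Medians over those 11 lines were 21.9 CPM of Nnt and 49.9 CPM of Gabra2. They leave out Tbc1d8, whose mice had 30.2 to 34.7 CPM of Nnt and 77.9 to 101 CPM of Gabra2.

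For Btaf1, Hrk male 19 stood apart below its line as well, with 65.8 CPM and the next mouse at 85.7 CPM.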

How the results depend on the processing

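The count of 3 low, 46 middle and 55 high libraries was the same in both RefSeq tables and Ensembl FPKM. It was also the same with scaling without TMM and with a normal mixture chosen by BIC. All of these settings rest on the same reads. With at least 4 libraries asked of every range, as first planned, the counts were 4, 45 and 55. Taking every gap of at least 0.1 log2 with at least 4 libraries a range gave 2 ranges, of 49 and 55, because 3 libraries cannot form a range there. The ratios between ranges were taken again with every library kept in its range, under 4 alternatives each. The middle over low ratio ran from 1.45 to 1.51, and the high over middle ratio stayed at 1.35. Redrawn ranges were not tried for these ratios. Btaf1 and Fgfbp3 stayed at ranks 1 and 2 by likeness under 4 alternatives each.

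The sex difference of Ide kept its sign and missed the threshold under 24 alternatives (0.01 to 0.04 log2, adjusted p from 0.675 to 0.965). The replicate number as a block gave 0.03 (adjusted p = 0.715). Same-numbered females and males share only a number: 9 of 52 pairs correlated above 0.1, and the block moved the sex calls over all genes to 1376, against 1324. The plate difference turned to -0.0135 without the line Morf4l1 (adjusted p = 0.977), and its adjusted p ran from 0.812 to 0.989 over all alternatives.

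Calls between lines were lost when Tbc1d8 and Gsg1l were left out. There edgeR called 0 neighbours and 0 listed genes, with 5 and 6 at an unadjusted p under 0.05, and 0.0843% of all genes. With so few calls over all genes, this loss does not show that a given gene's difference came from those lines. On plate 1 only, 3 listed genes were called, and 6.58% of all genes. The cause was not tested. The low range rests on 3 libraries from 2 lines, Fgfbp3, Kif11 and Hhex have few reads, and the ranges describe the values that set them.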
